A study of Mus musculus with 24 samples.

Results

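The genes described here are 8 mouse genes whose RNA was much lower in a single cell line than in the line or lines it was compared with. Rangrf and Tvp23a were low in the melanoma line DB#3, and Uaca, Ppp1r21, Cdc42ep3, Foxd2, Tnnt1 and Ddc were low in the myeloid line J365. They were chosen from measured values of these same arrays, by the difference of J365 from M0 or of DB#3 from the other melanoma lines, with no numeric threshold. Those differences are therefore given as a description, without a test. The 8 genes are among 22877 gene symbols on the array and are read by 14 probes, with more than 1 probe for 5 of them.

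Total RNA of 7 lines was labelled with cyanine 3 and hybridised to 24 single-colour Agilent whole-mouse arrays, 1 sample per array. The study used these lines to ask what distinguishes tumour cells that persisted in mice for a long time from the cells they came from. The 5 melanoma lines derive from B16F1, a pigmented melanoma line of C57BL/6 mice, and all of them carry green fluorescent protein. M (B16F1-GFP-M, 3 arrays) is the parental line, and D (B16F1-GFP-D, 4 arrays) was recovered from a mouse after a long dormancy under immunotherapy. DB#1 (4 arrays), DB#2 (3 arrays) and DB#3 (3 arrays), labelled B16F1-GFP-DB with the same numbers, are a second generation recovered from a brain site. M0 (4 arrays) and J365 (3 arrays) are labelled as myeloid cells, and the labels do not say which of the leukemia lines of the study they are. One M0 array and 1 J365 array carry no replicate number in their titles and are called replicate 4 here. All lines had been grown in culture and stored frozen before RNA was taken. Values of M0 are given in the order of replicates 4, 1, 2 and 3, those of J365 in the order 4, 1 and 3, and those of DB#3 in the order 3, 4 and 5. Each group is 1 line, so its arrays are not separate derivations. No label says that they came from separate cultures, and the p-values below measure only the spread between arrays, which may be technical. In RNA of a whole culture, fewer cells expressing a gene and less RNA in each cell cannot be told apart.

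Levels are given as the normalized log2 signal, the log2 intensity of a probe from which the array's own 75th percentile of log2 intensity was taken away, so that 0 is that percentile and a difference of 1 is a doubling of intensity. Where a gene has several probes its brightest probe over all arrays is used, and levels of different probes are not set against each other. A probe is called read on an array where the scanner software marked it well above background. Where a gene was read on no array of a line, its true level there has only an upper bound. The fold bounds given below hold only for the probe, scaling and background correction used, and are not minima under other processing. Between 43.6% and 53.8% of probes were read on 23 arrays, and 89.9% on D replicate 3, whose 75th percentile of intensity was also the highest. D replicate 1 had the lowest share. Of 8 melanin synthesis markers, 8 were read on each melanoma array and 2 or 3 on the myeloid arrays, where Tyrp1, Dct, Mlana, Oca2 and Slc45a2 were read on no array. Tyr and Mitf were read on every myeloid array. Of 10 blood cell markers, 10 were read on each myeloid array and 2 to 5 on the melanoma arrays other than D replicate 3, where 8 were read. Ptprc and Vav1 were read on no melanoma array, and Itgam and Was on every one. Of 7 fibroblast markers, 1 to 3 were read on those melanoma arrays and 6 on D replicate 3. Of 8 brain cell markers, 4 or 5 were read on those arrays and 8 on D replicate 3.

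The 8 genes have unlike roles. Rangrf (also called Mog1) binds the small GTPase Ran, which drives transport through the nuclear pore. Tvp23a is a membrane protein of the trans-Golgi compartment. Uaca binds the apoptosome component Apaf1 and the cell death protein Par-4 (Pawr). Ppp1r21 is a subunit of the FERRY complex, which binds the early endosome GTPase Rab5 and carries messenger RNAs on endosomes. Cdc42ep3 is an effector of the GTPase Cdc42 that organises actin and septin filaments. Foxd2 is a forkhead transcription factor. Tnnt1 is the troponin T of slow skeletal muscle, which ties troponin to tropomyosin on the thin filament. Ddc is aromatic L-amino acid decarboxylase, which makes dopamine from L-DOPA and serotonin from its hydroxylated precursor.

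The starts of 7 of these genes were found in a RefSeq promoter table of assembly GRCm38.p6, and Tvp23a had no entry. Those of Ppp1r21, Foxd2, Rangrf and Ddc are shown because they span the range of CpG content among the 8 genes. Each line gives the 250 bases before the start, written 5′ to 3′ on the strand of the gene, in lower case with every CG (a C followed by a G, the CpG at which DNA can be methylated) in capitals. The second entry of Ddc is the start nearer to its 3′ end.
Ppp1r21, chr17:88529874-88530123, plus strand: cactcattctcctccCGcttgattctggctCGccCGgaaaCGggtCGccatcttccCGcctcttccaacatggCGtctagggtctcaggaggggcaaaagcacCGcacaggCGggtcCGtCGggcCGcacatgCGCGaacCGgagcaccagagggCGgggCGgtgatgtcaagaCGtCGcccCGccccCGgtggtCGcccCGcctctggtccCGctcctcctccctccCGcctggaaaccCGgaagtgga
Foxd2, chr4:114908899-114909148, minus strand: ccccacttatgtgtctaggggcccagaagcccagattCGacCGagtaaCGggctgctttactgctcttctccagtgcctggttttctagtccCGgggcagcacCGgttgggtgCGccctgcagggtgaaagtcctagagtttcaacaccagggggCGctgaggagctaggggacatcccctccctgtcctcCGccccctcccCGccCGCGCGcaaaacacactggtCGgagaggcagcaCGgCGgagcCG
Rangrf, chr11:68973856-68974105, minus strand: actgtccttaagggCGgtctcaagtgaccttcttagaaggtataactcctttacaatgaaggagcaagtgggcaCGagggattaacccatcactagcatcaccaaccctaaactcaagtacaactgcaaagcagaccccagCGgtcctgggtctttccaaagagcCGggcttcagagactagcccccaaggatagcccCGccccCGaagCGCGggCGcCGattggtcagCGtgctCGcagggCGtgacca
Ddc, chr11:11898145-11898394, minus strand: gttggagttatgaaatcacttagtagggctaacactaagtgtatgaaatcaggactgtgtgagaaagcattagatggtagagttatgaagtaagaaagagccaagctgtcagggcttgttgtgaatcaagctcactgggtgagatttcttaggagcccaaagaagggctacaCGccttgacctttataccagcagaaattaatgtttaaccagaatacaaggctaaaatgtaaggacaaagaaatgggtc
Ddc, chr11:11890409-11890658, minus strand: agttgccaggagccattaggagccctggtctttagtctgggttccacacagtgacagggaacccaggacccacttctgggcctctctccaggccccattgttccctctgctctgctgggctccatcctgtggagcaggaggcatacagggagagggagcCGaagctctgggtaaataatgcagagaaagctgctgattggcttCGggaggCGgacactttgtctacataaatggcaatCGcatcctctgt

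The motif searched was CG, which reads the same on both strands, over the 250 bases before each of the 32851 starts in the table. Ppp1r21 held 26, and 9.59% of the starts held at least as many. Cdc42ep3 held 18, Foxd2 16, Rangrf 13 and Uaca 10, numbers that 21.7%, 25.4%, 31.5% and 37.8% of starts reach or exceed. Tnnt1 held 6, which is the median over all starts. The starts of Ddc held 1 and 4, reached by 92.1% and 62.2% of starts. The letters TATAAA, searched on both strands, were found before Tnnt1 and before the first start of Ddc and in 12.4% of all starts. The starts thus differed widely in CpG content. The arrays measured no methylation, and these counts describe the sequence alone.

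Rangrf was low in DB#3 and in no other line. Its normalized log2 signal on the DB#3 arrays was -4.96, -5.15 and -4.22, and it was read on 0 of the 3. On the M arrays it was 0.68, 0.21 and 0.50. On the D arrays it was 0.86, 1.03, 0.50 and 0.93. The DB#3 arrays lay far below both lines, with no overlap. On the DB#1 arrays it was 0.24, 0.47, 0.54 and 0.65, and on the DB#2 arrays 0.97, 1.07 and 1.01. M, DB#1 and DB#2 each overlapped D. It was 0.81, 0.21, 0.29 and 0.27 on the M0 arrays, and between -0.08 and 0.45 on the J365 arrays. In order of their means the lines ran DB#2, D, DB#1, M, M0, J365 and DB#3, and each overlapped the next except J365 and DB#3. The difference of DB#3 from M was -5.24 on the log2 scale, and that from D, DB#1 and DB#2 was -5.61, -5.25 and -5.80. As bounds on this probe and under this scaling, Rangrf was at least 26.9-fold lower in DB#3 than in M, and at least 34.7-fold, 27.2-fold and 39.6-fold lower than in D, DB#1 and DB#2. The other 2 probes, and normexp background correction (-2.75 against M), gave smaller differences.

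All 3 probes of Rangrf match the same transcript, and all 3 were low in DB#3. Another probe gave -2.39, -3.00 and -4.67 on the DB#3 arrays, and was read on 2 of the 3. A further probe gave -3.36, -3.29 and -4.27 and was also read on 2 of the 3. These probes thus still gave a low reading in DB#3 where the brightest probe gave none, and replicate 5 was the array below background on both. Their differences of DB#3 from M were -3.58 and -3.80. On the arrays of the other 6 lines all 3 probes were read on every array, with levels between -0.33 and 1.07.

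Tvp23a was likewise read on 0 of 3 DB#3 arrays, at -6.45, -6.58 and -6.25, but it differed from Rangrf in the other lines. It was -0.82, -1.35 and -1.44 on the M arrays. It was -0.95, -1.24, -1.76 and -1.53 on the DB#1 arrays. M and DB#1 overlapped. It was -0.79, -1.05 and -0.57 on the DB#2 arrays, and -2.18, -3.20, -2.07 and -3.14 on the D arrays. D was thus intermediate, below every array of M, DB#1 and DB#2 and above every array of DB#3. M0 and J365 were at -6.26 to -6.001 and -6.68 to -6.20, and the gene was read on none of their 7 arrays. The difference of DB#3 from M was -5.23, and from D it was -3.78. As bounds, Tvp23a was at least 8.50-fold lower in DB#3 than in M, and at least 3.11-fold, 7.56-fold and 11.2-fold lower than in D, DB#1 and DB#2. Its other probe was read on D replicate 3 alone, at -2.30, so that the values rest on 1 probe.

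**Figure D1:**
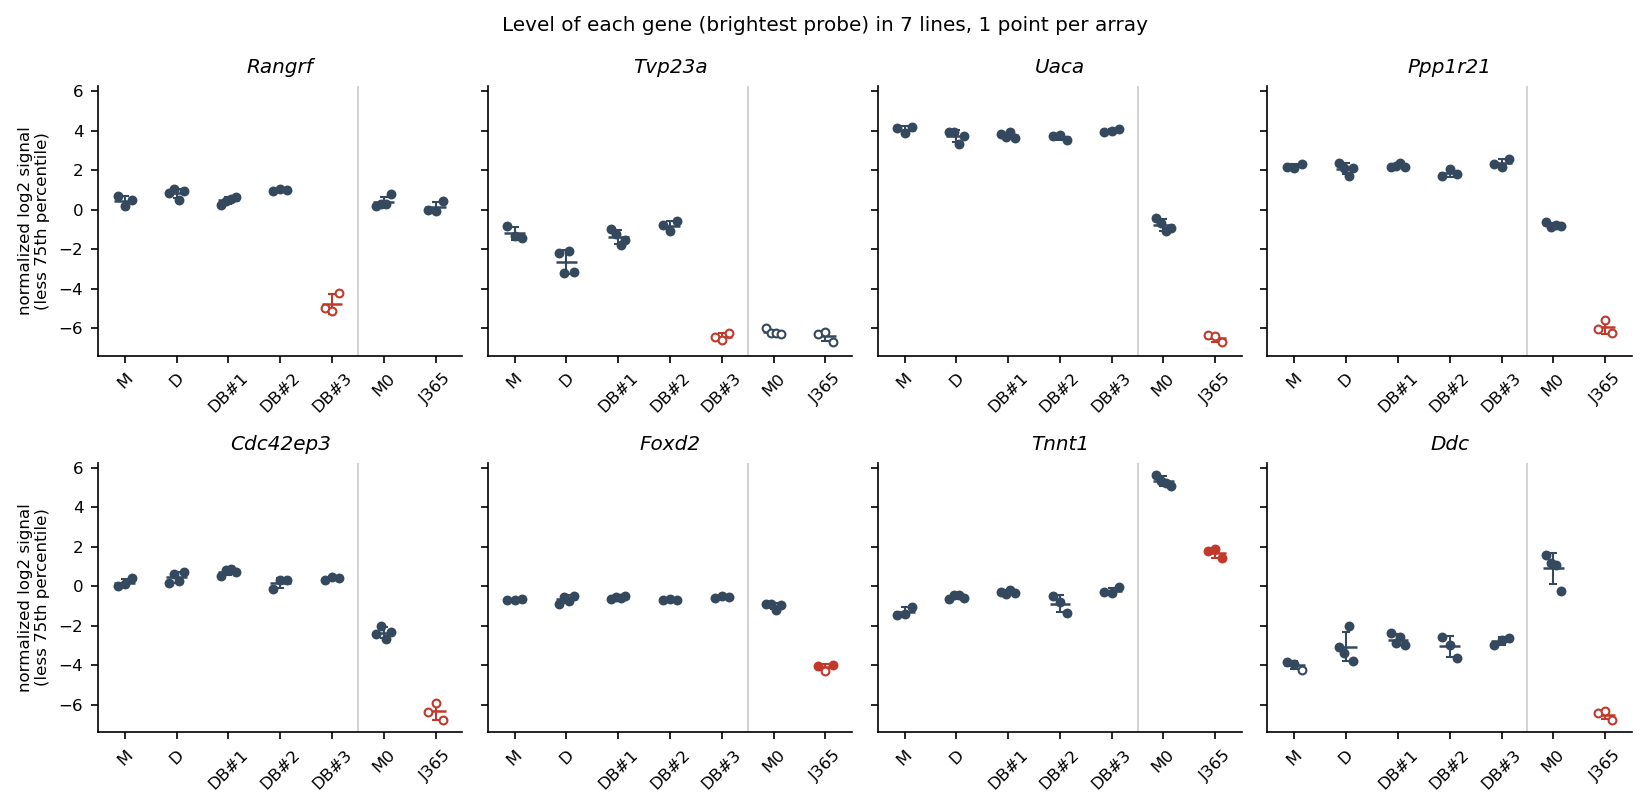
The normalized log2 signal of the brightest probe of each of the 8 genes (vertical axis, log2 scale) is plotted for the 7 lines, 1 point per array, with the mean as a line and the SD as bars. Filled points were well above background and open points were not. Red marks the line for which a gene was chosen. The highest DB#3 array of Rangrf lies at -4.22 and every other line above it, while Tvp23a is at the same low level in DB#3, M0 and J365.

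The difference of D from M was not itself a value on which Tvp23a was chosen. It comes from the same M and D arrays as that choice, however, so its test is not independent of the choice. The same holds for the other differences of Rangrf and Tvp23a between D, DB#1 or DB#2 and M given here. In limma's test over 20145 genes, of which 2.97% were called at an adjusted p under 0.05, Tvp23a was called lower in D by 1.45 ± 0.26 (log2 difference ± SE, n = 4 and 3), with an adjusted p of 0.00185. It was lower than the lowest M array in 4 of 4 D arrays, and D replicates 1 and 3 were the higher pair. Without those arrays, the ones with the lowest and the highest share of probes read, the difference was -1.97 (adjusted p = 3.13e-05). That setting was chosen after seeing the data, and leaving out the higher pair can only enlarge the fall, so it adds no support. Within the 3 slides, each of which held every line, the difference was -1.25, -0.72 and -2.33. It was no longer called with only the arrays of M and D in the fit (adjusted p = 0.182), or with the mean over both probes, the second of which was read on D replicate 3 alone (-0.54, adjusted p = 0.728). Rangrf was 0.37 ± 0.21 higher in D than in M, which was not called (adjusted p = 0.556). Neither gene was called in DB#1 against M, where 3.69% of genes were called, or in DB#2 against M, where 3.44% were. Their differences there lay between -0.17 and 0.56. In J365 against M0 Rangrf differed by -0.27 ± 0.21 and was not called (adjusted p = 0.893). Genes also low in J365 may have been left out of a list of single-line losses, so this too may depend on the choice.

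In limma's test 0.229% of genes were called between DB#3 and DB#1, 0.369% between DB#3 and D, 2.76% between DB#3 and M, and 4.44% between DB#3 and DB#2. Fits restricted to DB#3 and the other line called 55 genes against DB#1 and 11 against D, and without D replicates 1 and 3 the counts were 87 and 84, so that the order of DB#1 and D depends on the arrays in the fit. Genes lower in DB#3 than in M made up 1.15% of those tested. Of 17826 names read on every array of M, D, DB#1 and DB#2, 3 (0.0168%) were read on no DB#3 array. They were Rangrf, Tvp23a and a transcript without a symbol. The same count was 26 of 17871 for M, 14 of 17822 for DB#2, 0 of 17815 for DB#1 and 0 of 18788 for D, with its array of 89.9% of probes read. These counts use the brightest probe of each name. By that probe Rangrf is the 1 gene with a symbol that was read on every array of the other 6 lines and on none of DB#3. Each of its other probes was read on 2 of the 3 DB#3 arrays.

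Ddc, the enzyme that makes dopamine and serotonin, was read on every M0 array and on no J365 array. Its normalized log2 signal was -0.23, 1.58, 1.196 and 1.07 on the M0 arrays, and -6.77, -6.41 and -6.33 on the J365 arrays. The unnumbered M0 array was the lowest of its line. The difference of J365 from M0 was -7.41, at least 35.1-fold lower as a bound under this scaling, and -3.47 under normexp background correction. In melanoma it was low but mostly read, at -4.22 to -3.83 on the M arrays, where it was read on 2 of 3. It was -3.76 to -2.03 on the D arrays, -2.97 to -2.36 on DB#1, -3.61 to -2.54 on DB#2 and -2.99 to -2.63 on DB#3. J365 lay below every melanoma array. The other probe of Ddc, which matches another transcript, was read on no array but D replicate 3, so that the fall is seen on 1 of 2 probes.

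Uaca was -0.91, -0.41, -0.68 and -1.10 on the M0 arrays and -6.72, -6.35 and -6.41 on the J365 arrays, where it was read on 0 of 3. The lines did not overlap, and the difference was -5.72, at least 10.96-fold as a bound. Uaca was far higher in all melanoma lines, with line means between 3.68 (DB#2) and 4.06 (M). Its second probe was read on every melanoma array, on 1 of 4 M0 arrays and on 0 of 3 J365 arrays. Its difference was -2.49, and since its level was near background in M0 too, no bound is given for this probe.

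Ppp1r21 was nearly level within M0, at -0.84, -0.64, -0.85 and -0.79, and was read on none of the J365 arrays, at -6.23, -6.01 and -5.60. The difference was -5.17, at least 10.9-fold as a bound. Melanoma means lay between 1.86 ± 0.17 (SD, n = 3) in DB#2 and 2.35 ± 0.22 (SD, n = 3) in DB#3, above every myeloid array. Cdc42ep3 was -2.33, -2.42, -2.005 and -2.65 on the M0 arrays and -6.75, -6.34 and -5.89 on the J365 arrays, where it was again read on 0 of 3. The difference was -3.98, at least 3.68-fold as a bound, and melanoma means lay between 0.18 and 0.74. Each of these genes has 1 probe on the array.

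Foxd2 was low in J365 but not absent. It was -0.96, -0.92, -0.91 and -1.22 on the M0 arrays and -4.00, -4.03 and -4.28 on the J365 arrays, and it was read on replicates 4 and 1 of J365 but not on replicate 3. The difference was -3.10. The other 6 lines were nearly alike, with melanoma means from -0.68 to -0.55 and an M0 mean of -1.005 ± 0.15 (SD, n = 4), which did not overlap the nearest melanoma line, DB#2. J365 thus lay apart from a narrow range of the other lines. Foxd2 also has 1 probe.

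Tnnt1 was lower in J365 and still well expressed there. It was 5.09, 5.64, 5.35 and 5.24 on the M0 arrays and 1.42, 1.80 and 1.88 on the J365 arrays, all of them read. The difference was -3.63, a 12.4-fold lower level, and on the second probe, which matches another transcript, it was -3.47. Unlike the other 5 genes, Tnnt1 was higher in J365 than in every melanoma line, whose means lay between -1.30 and -0.23. Its fall was from a high level in M0 to a level that every array still read.

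Slides each held arrays of both lines, and the differences were also taken within each of the 3 slides. They lay between -7.90 and -7.19 for Ddc, -5.998 and -5.67 for Uaca, -5.42 and -4.96 for Ppp1r21, -4.34 and -3.47 for Cdc42ep3, -3.36 and -2.91 for Foxd2 and -3.76 and -3.55 for Tnnt1. For DB#3 against M they lay between -5.64 and -4.72 for Rangrf and between -5.64 and -4.81 for Tvp23a. Every one of the 8 genes was thus low within each slide. The genes were chosen on these same arrays, so this describes the falls and adds no support for them.

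**Figure D2:**
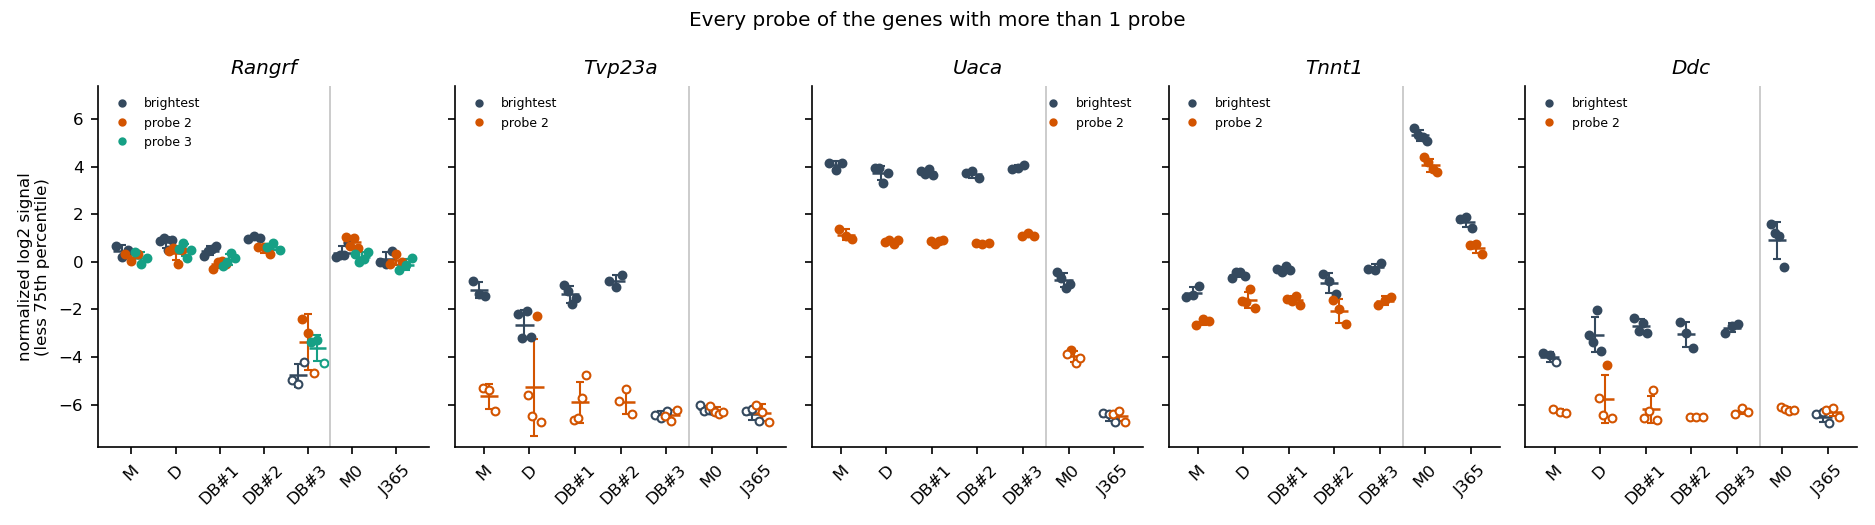
Every probe of the 5 genes with more than 1 probe is plotted for the 7 lines (vertical axis, normalized log2 signal), 1 point per array, with means and SD bars and open points for arrays on which a probe was not well above background. All 3 Rangrf probes fall in DB#3 and both Tnnt1 probes fall in J365, while the second probes of Tvp23a and Ddc are read on D replicate 3 alone.

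Of 20660 genes tested in J365 against M0, 1.47% were called, 0.745% as lower, and the 6 genes had been picked from that end of the list. Of the calls 49.2% were higher in J365, and 69.5% without scaling between arrays, which moved the median of all genes from 0.02 to 0.17. Of 19678 names read on every M0 array, 64 (0.325%) were read on no J365 array, among them Uaca, Ppp1r21, Cdc42ep3 and Ddc. The reverse count, names read on every J365 array and on no M0 array, was 65 of 20210. Of 15854 names read on every array of all other 6 lines, 16 were read on no J365 array, and Uaca, Ppp1r21 and Cdc42ep3 were 3 of these 16.

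The 6 genes were next compared among the melanoma lines, whose differences were not the values on which they were chosen. A list of losses in a single line may have left out genes also low in DB#3. The lack of a fall in DB#3 is therefore not independent of the choice. Of the 6, Tnnt1 was called, in 3 comparisons with M in which 2.76% (DB#3), 3.69% (DB#1) and 2.97% (D) of all genes were called. It was higher than in M by 1.07 ± 0.19 in DB#3 (adjusted p = 0.00176), by 1.00 ± 0.18 in DB#1 (adjusted p = 0.00153) and by 0.77 ± 0.18 in D (adjusted p = 0.0191, limma). Every array of these lines lay above every M array. DB#2 was 0.43 ± 0.19 above M, overlapped it, and was not called (adjusted p = 0.365). The difference in D within the 3 slides was 0.48, 0.98 and 0.87. Its call was lost without M replicate 1 (adjusted p = 0.119), M replicate 2 (0.109) or D replicate 2 (0.0555), under normexp background correction (0.0527), without a filter on dim probes (0.0792), with D replicates 1 and 3 both left out (0.0655), and with only the arrays of M and D (0.211). The second Tnnt1 probe was not tested and had means of -2.51 in M and -1.60, -1.61, -2.07 and -1.63 in D, DB#1, DB#2 and DB#3.

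Ddc was higher than in M by 1.30 ± 0.38 in DB#1 (adjusted p = 0.0644), 1.22 ± 0.40 in DB#3 (adjusted p = 0.157), 0.95 ± 0.40 in DB#2 (adjusted p = 0.312) and 0.94 ± 0.38 in D (adjusted p = 0.274, limma). No array of these lines overlapped M, and none of the differences was called. With only the arrays of DB#3 and M in the fit, the difference in DB#3 was called (adjusted p = 0.0189). The difference in DB#1 was called under 7 of the 34 alternatives, among them slide as a block (adjusted p = 0.0442), with adjusted p from 0.00865 to 0.509 over all of them. Uaca, Ppp1r21, Foxd2 and Cdc42ep3 were not called in any melanoma line against M, with differences between -0.38 and 0.56. Uaca was called lower in DB#2 with the 75th percentile taken over detected probes (adjusted p = 0.0431). The largest of the differences was that of Cdc42ep3 in DB#1 (0.56 ± 0.20, adjusted p = 0.163), where the arrays did not overlap those of M. Between DB#3 and D, DB#1 or DB#2 none of the 6 genes was called, with Tnnt1 against DB#2 nearest (0.64 ± 0.19, adjusted p = 0.0693, and called under 4 alternatives, with slide as a block at 0.0256). Ppp1r21 against DB#2 (0.50 ± 0.17, adjusted p = 0.132) was called under 3 alternatives, with slide as a block at 0.00867. These comparisons with M share the M arrays.

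Whether genes beside each member moved with it was examined with the 5 nearest tested genes on each side, in the order of the gene table. Of 20 such genes around Rangrf and Tvp23a, none was called lower in DB#3 than in M and 1 was called higher, against 2.76% called of all genes in either direction (2 of the 20 had an unadjusted p under 0.05). Of 59 around the 6 genes low in J365, 1 was called lower and 2 higher, against 1.47% of all genes (7 of the 59 had an unadjusted p under 0.05). The median difference of these neighbours was -0.06 in DB#3 against M and 0.04 in J365 against M0. Ppp1r21 lies near the end of chromosome 17, with 4 tested genes beyond it.

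Rangrf lies on chromosome 11 between Slc25a35, a mitochondrial carrier whose span in the gene table overlaps its own, and Pfas, an enzyme of purine synthesis. Slc25a35 differed by -0.77 ± 0.25 in DB#3 against M (adjusted p = 0.157) and Pfas by 0.13 ± 0.22 (adjusted p = 1.00). Neither was called. Tvp23a lies on chromosome 16 between Nubp1, an iron-sulfur cluster assembly factor whose span also overlaps it, and Dexi. These differed by 0.14 ± 0.14 (adjusted p = 0.945) and -0.10 ± 0.18 (adjusted p = 1.00). Carhsp1, an RNA-binding protein gene among the tested genes before Tvp23a, was called higher in DB#3 (1.32 ± 0.20, adjusted p = 0.000277). Its level was also higher in D, DB#1 and DB#2 than on any M array, with means of 3.17, 3.43 and 3.25 against 1.96 in M. Against D no neighbour of either gene was called.

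In J365 the one neighbour called lower was 1700042O10Rik, a gene known by its RIKEN clone name, whose span lies inside that of Ddc. It was 0.16, 2.17, 1.87 and 1.74 on the M0 arrays, and -6.76, -2.49 and -2.47 on the J365 arrays. All J365 arrays lay below all M0 arrays, and replicate 4, the unnumbered array, was the lowest of each line and in J365 was below background. The difference was -5.39 ± 0.79 (adjusted p = 0.000274, limma) and was not called with only the arrays of the 2 lines (adjusted p = 0.0537). Among the melanoma lines it was, like Ddc, lowest in M. It was read on no M array, on 1 of 4 D arrays and on every array of the DB lines. It was called higher than in M in DB#1 (3.31 ± 0.79, adjusted p = 0.0167) and in DB#2 (4.77 ± 0.84, adjusted p = 0.00122, limma), and in DB#3 it was 3.12 ± 0.84 higher and not called (adjusted p = 0.0512). Fignl1, on the other side of Ddc, differed by 0.35 ± 0.15 (adjusted p = 0.473).

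Around the other 5 genes no neighbour was called lower. Lrrc49 and Gm5122 beside Uaca differed by -0.48 ± 0.25 and 0.67 ± 0.77, and Foxn2 beside Ppp1r21 by 0.60 ± 0.25. Skint9 and Foxd2os, the transcript next to Foxd2, differed by 0.10 ± 0.53 and -0.29 ± 0.20. Foxd2os was read on every array of both myeloid lines, at means of 0.09 in J365 and 0.38 in M0, while Foxd2 was low in J365. Spata6, among the tested genes before Foxd2, was called higher in J365 (2.83 ± 0.24, adjusted p = 1.75e-07) and was read on no M0 array. Its call was lost under normexp background correction (adjusted p = 0.0639). Prkd3, a kinase gene next to Cdc42ep3, was called higher (1.63 ± 0.38, adjusted p = 0.0296), at -3.73, -3.54 and -3.02 in J365 and -3.55, -5.63, -6.26 and -4.81 in M0, where it was read on 1 of 4 arrays and the lines overlapped. That call was lost under 9 alternatives, among them the removal of any single J365 array or of M0 replicates 1 or 2. Atl2 on the other side of Cdc42ep3 differed by -0.02 ± 0.22, and Ppp1r12c and Tnni3 beside Tnnt1 by 0.08 ± 0.19 and -0.64 ± 0.45.

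**Figure D3:**
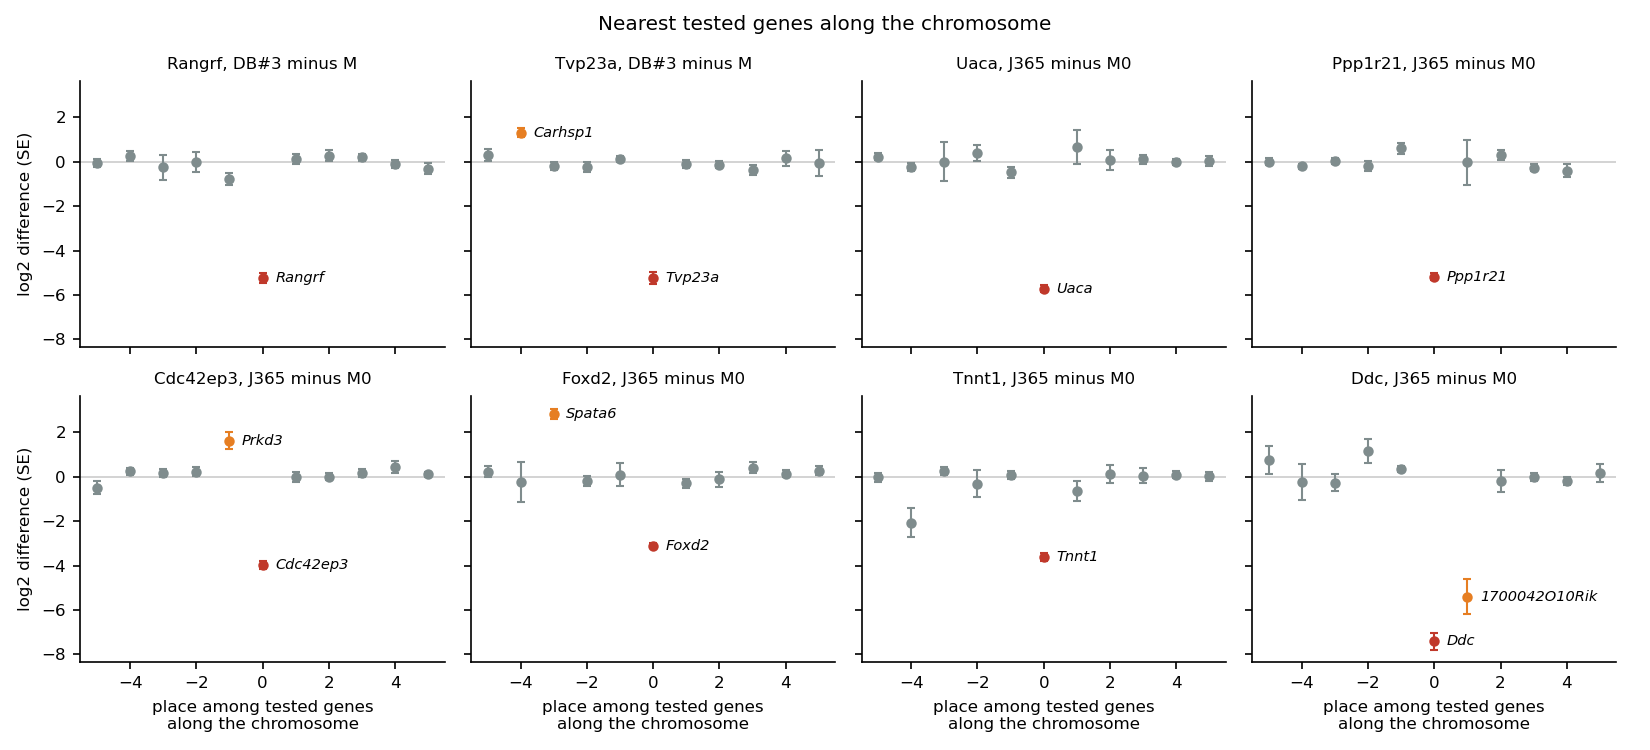
The log2 difference (DB#3 minus M or J365 minus M0, with SE bars) is plotted for each gene and the 5 nearest tested genes on each side, by place in chromosome order (0 is the gene itself, in red). Orange marks neighbours called by limma. The one neighbour called lower is 1700042O10Rik, at -5.39 beside Ddc.

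Genes that work with each of the 8 were read from lists of known partners and relatives. For Rangrf the list was the Ran cycle with the importins and exportins, of which 13 of 14 genes were tested in DB#3 against M and 0 were called (1 at an unadjusted p under 0.05). Ranbp2, a nuclear pore protein that binds Ran and is named here after its values were seen, was called lower with slide as a block (-0.52, adjusted p = 0.0132, against 0.170 without the block). The median difference of the list was 0.19, beside 0.03 over all genes tested. Ran itself was 8.33 in DB#3 and 8.16 in M (difference 0.17 ± 0.16), and Rcc1, the exchange factor of Ran, differed by 0.40 ± 0.29. Against D, 0 of 13 were called (0 at an unadjusted p under 0.05). For Tvp23a the list was of Golgi membrane and SNARE proteins, of which 0 of 14 were called against M or against D (0 at an unadjusted p under 0.05), with a median of -0.14 against M. Tvp23b, its closest relative, was 1.18 in DB#3 and 1.48 in M (difference -0.30 ± 0.26, adjusted p = 0.906) and was read on every array of both lines.

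Of the apoptosome and Par-4 list of Uaca, 12 of 13 genes were tested in J365 against M0 and 0 were called (0 at an unadjusted p under 0.05), with a median of 0.21 beside 0.02 over all genes. Apaf1 was -0.20 in J365 and -0.12 in M0 (difference -0.08 ± 0.12). Pawr was read on no array of either line. Of the early endosome and FERRY list of Ppp1r21, 12 of 12 were tested and 0 were called (0 at an unadjusted p under 0.05), with a median of 0.09. The other FERRY subunits measured, Tbck, Cryzl1 and Gatd1, differed by -0.16 ± 0.15, 0.27 ± 0.19 and -0.27 ± 0.17 and were read on every array of both lines. In these lists the lowest difference was -0.27, for Gatd1.

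Of the Cdc42 effectors and septins, 14 of 18 were tested and 1 was called, against 1.47% of all genes (2 at an unadjusted p under 0.05), with a median of -0.09. The gene called was Cdc42ep4, a relative of Cdc42ep3. It was -0.61, 0.21, -0.02 and -0.20 on the M0 arrays and -2.03, -1.40 and -1.80 on the J365 arrays, all of them read and without overlap. Its difference was -1.58 ± 0.16 (adjusted p = 2.23e-06, limma). Cdc42ep2 differed by -0.48 ± 0.43 (adjusted p = 0.959), and Cdc42ep1 and Cdc42ep5 were read on 1 and 0 of the 7 myeloid arrays.

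Of the troponins, tropomyosins and muscle actins, 9 of 13 were tested and 1 was called, against 1.47% of all genes (2 at an unadjusted p under 0.05), with a median of 0.02. It was Tnni1, the troponin I of slow skeletal muscle. Tnni1 was 1.39, 2.78, 2.46 and 2.28 on the M0 arrays and -1.01, -0.22 and -0.88 on the J365 arrays, and was read on all of them. The lines did not overlap, and the difference was -2.93 ± 0.44 (adjusted p = 0.000353, limma). The troponin T and I forms of slow muscle were thus both lower in J365 than in M0. Tnnt3, the fast form, differed by 0.004 ± 0.29, Tnnt2, the cardiac form, was read on neither line, and Tnnc1, the troponin C of slow and cardiac muscle, was read on 4 of the 7 arrays and was not tested.

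Of the forkhead list (23 genes, with Foxd2os), 15 were tested and 1 was called, against 1.47% of all genes (4 at an unadjusted p under 0.05). It was Foxl1, which was higher in J365 by 2.24 ± 0.47 (adjusted p = 0.0132, limma). It was -1.90, -1.47 and -0.83 on the J365 arrays and -3.69, -4.05, -3.50 and -3.33 on the M0 arrays, 3 of which read it, without overlap. The call was lost without J365 replicate 1 (adjusted p = 0.0538) or J365 replicate 3 (adjusted p = 0.109). The median of the list was 0.02. Foxd1 was read on no myeloid array and Foxd3 on 1. Of the genes of amine synthesis, storage and breakdown, 12 of 20 were tested and 0 were called (1 at an unadjusted p under 0.05). Their median difference was 0.04. Th, Hdc and Gch1 differed by -0.09 ± 0.61, -0.05 ± 0.61 and 0.48 ± 0.53, and Tph1, which makes the precursor that Ddc turns into serotonin, by 1.47 ± 0.69 (adjusted p = 0.555, and called under 3 alternatives). Slc18a2, the vesicle transporter of monoamines, was 4.67 in J365 and 4.96 in M0 (difference -0.29 ± 0.18), and Maoa was read on no myeloid array.

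**Figure D4:**
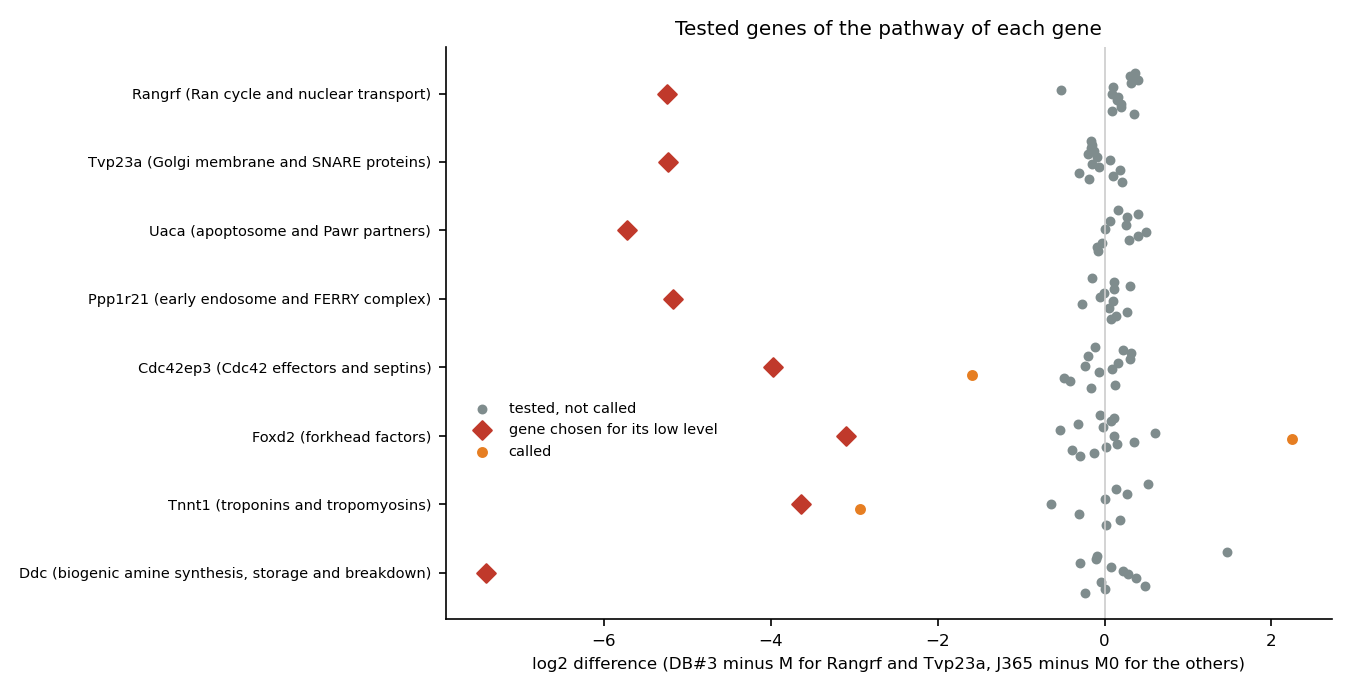
The log2 difference (horizontal axis, DB#3 minus M or J365 minus M0) of each of the 8 genes (red diamonds) is set beside the tested genes of its list (points, orange where called by limma). The list genes lie near 0 except Cdc42ep4 (-1.58), Tnni1 (-2.93) and Foxl1 (2.24), and Tph1 (1.47, not called).

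The genes whose pattern was most like each of the 8 were ranked by Pearson correlation over the 24 arrays, among 14310 genes with a symbol that were read on every array of at least 1 line. Arrays share their line and slide, so these values are a description. Uaca, Ppp1r21 and Cdc42ep3 were among the 3 nearest of each other, with r between 0.991 and 0.994. Nearest to each of them was Rab38, a GTPase of melanosome transport, with r of 0.998, 0.996 and 0.993. Rab38 was 1.37, 1.74, 1.46 and 1.07 on the M0 arrays and was read on none of the J365 arrays, and its melanoma mean was 7.01. These 4 genes shared the order melanoma, M0, J365, and the correlation over arrays includes that order of the lines.

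Nearest to Foxd2 were 2310030G06Rik (r = 0.971), Dlg3 (0.964) and Ppp1r21 (0.952). Nearest to Ddc were Sh2b2 (0.910), Arntl2 (0.861) and Exoc3l4 (0.844). Tnnt1, which like Ddc was highest in M0, was nearest to F13a1 (0.983), Gm32677 (0.970) and Itgax (0.957). F13a1, coagulation factor XIII subunit A of monocytes and platelets, was 3.86 to 5.79 on the M0 arrays and -3.75 to -1.23 on the J365 arrays, and was read on no melanoma array. Of the genes low in DB#3, Tvp23a had matches at least as close as those of Ddc, and Rangrf did not. Nearest to Tvp23a were Ippk (0.919), Mfsd2a (0.903) and Plxna4 (0.876). Ippk, which makes inositol hexakisphosphate, was 0.82, 0.81 and 0.78 on the DB#3 arrays and at least 1.53 on every other melanoma array. It was also low in the myeloid lines, with means of 0.52 in M0 and 0.82 in J365. Mfsd2a and Plxna4, like Tvp23a, were read on no myeloid array. The r of these genes thus includes the difference between melanoma and myeloid lines. No gene with a symbol came near Rangrf, for which the highest r were 0.540 (Zdhhc15), 0.538 (Rsad1) and 0.531 (Spint1). Names without a symbol were not ranked. Among them is the transcript that, like Rangrf, was read on every array of the other lines and on none of DB#3.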

How the data were processed

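The authors deposited 1 scanner table per array, made with Agilent Feature Extraction 10.7.3.1 according to the submitters' processing notes, in which each spot has a linear intensity already corrected for background. Their series table repeats those values without scaling between arrays (1511424 of 1511424 equal). Control spots and 117 probes marked as outliers on an array were left out, spots of a probe were averaged, and 56488 probes remained. From each log2 intensity the 75th percentile of its array was subtracted. Probes were named through their RefSeq accessions and a gene table of assembly GRCm38.p6. The array design refers to another assembly, so that table gave names, chromosome and order only. Tests took in the genes whose brightest probe was well above background on all arrays of either line compared. Lines were compared with limma 3.58.1 in R 4.3.3 (lmFit over all 24 arrays with 1 coefficient for each line, which leaves 17 residual degrees of freedom, then eBayes over the tested genes), with Benjamini-Hochberg adjustment over those genes and calls at an adjusted p under 0.05. The fits were tested on simulated data in which arrays varied independently. Those data had no slide effect, so they could not check the shared deviation of arrays on a slide. The genes described and the partner lists were chosen with earlier results of these data known. Named list genes were those called, at most 4 a list, and the closest partners. Named neighbours were the nearest tested gene on each side and any called, and 1 of them is not reported here. A bound is the mean of the brighter line minus the mean, over arrays of the dimmer line, of the higher of the probe's own signal and the lowest signal well above background on that array. That lowest signal is not a strict detection limit, since some probes not marked well above background lay above it. The number of arrays, 3 or 4 a line, limits the precision. Alternatives were other scaling, background correction, filters, probe averaging, slide and replicate blocks, within-slide values and the removal of arrays. The normexp correction used the median spot signal and an offset of 50. The methods of the study name GeneSpring and no test for the arrays.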

Additional observations from a re-analysis of the deposited data

Results flagged for a closer look

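In 3 of the 42 groups of 4 arrays examined (14 probes in D, DB#1 and M0), 1 array lay apart from the other 3 by Dixon's criterion, where chance gives about 1 in 20. All 3 were M0 arrays. Rangrf was 0.81 on M0 replicate 4, the unnumbered array, and 0.21 to 0.29 on the others. Tvp23a was -6.001 on M0 replicate 1 and -6.26 to -6.23 on the others, all below background. Foxd2 was -1.22 on M0 replicate 3 and -0.96 to -0.91 on the others. M0 was the comparator of Foxd2, whose difference was -3.01 to -3.17 with any single array left out.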

How the results depend on the processing

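In the comparisons for which they were chosen, the 8 genes stayed lower under all alternatives tried. They were chosen on these same arrays as strongly lower, so this adds no support for the falls. Their differences were smaller under normexp background correction, at -2.75 for Rangrf and -1.82 for Tvp23a in DB#3 against M (-0.94 for Tvp23a against D), and at -3.47 for Ddc, -2.04 for Uaca, -2.04 for Ppp1r21, -1.48 for Foxd2, -1.01 for Cdc42ep3 and -3.48 for Tnnt1 in J365 against M0. That setting adds an offset of 50 to every corrected intensity, which by itself narrows differences of dim probes. For each gene with a fold bound, the normexp difference was smaller than the bound on its brightest probe. With the mean of all probes of a gene they were -3.76 for Ddc, -4.11 for Uaca, -4.20 for Rangrf and -3.02 for Tvp23a. Levels near background limit the size of a fall, and 3 or 4 arrays a line its precision. Counts of genes called moved more, and the cause was not tested except where a stricter filter left fewer genes to test.

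For J365 against M0 (303 called), the count was 539 under quantile normalization, 499 with slide as a block, 136 with probes read in both lines, and 221 to 516 with any 1 array left out (516 without D replicate 3). For DB#3 against M (569) it was 369 with probes read in both lines and 403 to 713 with 1 array left out. For DB#3 against D (74) it was 11 with only the arrays of those lines, 47 without a filter on dim probes, 33 with probes read in both lines and 31 to 118 with 1 array left out. For DB#3 against DB#1 (47) it was 23 with probes read in both lines and 31 to 66. For DB#3 against DB#2 (931) it was 1668 without scaling, 1560 with slide as a block, 590 without a filter on dim probes and 589 to 1260. For D against M (598) it was 1083 with slide as a block, 135 with only the arrays of those lines and 337 to 934. For DB#1 against M (765) it was 1163 with slide as a block and 518 to 990. For DB#2 against M (720) it was 1255 without scaling, 1113 with slide as a block and 452 to 952. Without D replicates 1 and 3 together, a setting chosen after seeing the data, the counts were 639 (J365 against M0), 866 (DB#3 against M), 87 (DB#3 against DB#1), 1499 (DB#3 against DB#2), 1201 (DB#1 against M) and 1154 (DB#2 against M).

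Arrays of different lines that share a replicate number did not deviate together (mean r 0.078 over 49 pairs, from -0.80 to 0.91), so the numbers were not treated as a pairing. With the replicate block 234 genes were called in J365 against M0, 41 in DB#3 against D and 539 in DB#3 against DB#2, and the call of Foxl1 was lost (adjusted p = 0.0682). Arrays of different lines on the same slide did deviate together (mean r 0.55 over 69 pairs, against -0.25 over 137 pairs on different slides). The reported fit has no slide term, and its counts and calls with slide as a block are those given above.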
